A study of Mus musculus with 46 samples.

Results

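The genes described here are 40 genes of mitosis, measured by bulk RNA sequencing of sorted mouse microglia, the resident macrophages of the brain. They were listed by gene symbol, with earlier results of these data known. All 40 were found in each of the 4 deposited tables, among 24421 genes in the tables of developmental stages, total brain and hippocampus and 19762 genes in the table of untreated adults (24824 different genes in all). They comprise Cdk1 with cyclins A2, B1 and B2, the kinases and other proteins of mitotic entry, 2 proteins of the anaphase-promoting pathway, the spindle checkpoint, the chromosomal passenger complex, the centromere and kinetochore, spindle motors and microtubule proteins, the proteins of cytokinesis, and the proteins that shape mitotic chromosomes.

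Mitosis begins when Cdk1 bound to a B-type cyclin is activated, after which chromosomes condense and kinetochores capture the microtubules of the spindle. The spindle checkpoint holds back the anaphase-promoting complex until every chromosome is attached, and that complex then marks cyclins and other proteins for destruction so that chromosomes separate and the cell divides. Transcripts of these genes accumulate mainly in G2 and mitosis, so they are low in cells that do not divide. Microglia arise from yolk sac progenitors, multiply in the embryonic and newborn brain, and in the healthy adult brain maintain themselves with little division.

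The study asked how loss of Dicer, the ribonuclease that cuts microRNA precursors, affects the inflammatory response and the proliferation of microglia. Its 46 libraries hold 14 groups. Stage was read in Dicerfl/fl mice without Cre, at embryonic day 14 (E14, 4 libraries), on the day of birth (P0, 5 libraries) and at 6 to 8 weeks (adult, 5 libraries). Newborn Dicer-deficient microglia (2 libraries) carried Cx3cr1Cre:Dicerfl/fl, in which a constitutive Cre is driven by the Cx3cr1 promoter, and were set against 3 of those 5 P0 controls, the ones marked in the labels for that purpose. All remaining groups were 10 to 12 weeks old. By the sample labels, Dicer-deficient mice were Cx3cr1CreER:Dicerfl/- and controls were Cx3cr1CreER:Dicer+/-, so both carried a tamoxifen-dependent Cre and 1 Dicer null allele. The series text gives adult controls and Dicer-deficient mice the same genotype, and the sample labels were followed. Untreated adults gave 3 Dicer-deficient and 4 control libraries. In total brain there were 4 Dicer-deficient and 4 control libraries of cells taken 6 h after an intraperitoneal dose of 1 mg/kg LPS (lipopolysaccharide, the endotoxin of bacterial cell walls), and 3 Dicer-deficient and 3 control libraries at steady state. In hippocampus there were 2 Dicer-deficient and 2 control libraries after LPS, and 3 Dicer-deficient and 2 control libraries at steady state. Some labels of the steady-state libraries of total brain and hippocampus also name PBS, and all were treated as steady state. Cells were sorted as CD45intCD11b+F4/80+Ly6C-Ly6G-, except at E14, where the gate was CD45+CD11b+F4/80hiLy6C-Ly6G-, so stage and gate cannot be told apart between E14 and the later stages.

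Libraries held 898451 to 4573063 reads on listed genes. Values below are the authors' normalised read counts, in which each library was multiplied by 1 factor, and a group is given as its mean ± SD. Fold changes are on the log2(value + 1) scale, which shrinks the ratio of low values. They were tested with limma across all genes of a table with Benjamini-Hochberg adjustment at 0.05. In untreated adults 1 read is worth 2.59 to 5.37, so fold changes of low genes there can rest on single reads. Nothing in the labels says that replicates came from separate animals, so the spread behind each p-value is that between libraries and may be technical. In bulk samples, fewer dividing cells and less RNA per dividing cell cannot be told apart. The summed level of 13 microglial markers was 28250 or more in every library of the stage table, and lymphocyte markers summed to at most 5.04 there. Single markers varied more: Cx3cr1 was at 7454, 490.4, 8687, 1188 and 940.3 in the 5 adult libraries of that table. At birth Cx3cr1 was at 647.3 and 3129 in Dicer-deficient libraries, against 3744 to 5801 in the 5 P0 controls. The reason was not tested. Dicer1 itself was listed at 140 ± 77.4 in newborn Dicer-deficient microglia and at 76.4 ± 13 in the 5 P0 controls, and at 137 ± 18 in untreated adult Dicer-deficient microglia and 119 ± 24.1 in their controls. At steady state it was listed at 85.9 ± 18.8 in Dicer-deficient and 119.9 ± 16.7 in control microglia of total brain, and at 37.2 ± 21.7 in Dicer-deficient and 67.8 ± 35 in control microglia of hippocampus. After LPS it was at 111.9 ± 40.2 in Dicer-deficient and 107.1 ± 16 in control microglia of total brain, and at 87 ± 9.19 in Dicer-deficient and 85.4 ± 35.4 in control microglia of hippocampus. A count over the whole gene does not resolve the deleted part, so it does not check the genotype labels.

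The 40 genes were high at E14, lower at P0 and near the limit of detection in adults. Their summed level was 6445, 6134, 7378 and 6909 in the 4 E14 libraries, 4940, 4092, 4978, 3388 and 4244 in the 5 P0 libraries, and 277.8, 297.4, 233.8, 173.7 and 169.3 in the 5 adult libraries. The 3 stages did not overlap. As a share of all reads, scaled to 1000000 reads (RPM), the genes took 3408 to 4057 RPM at E14, 1849 to 2780 RPM at P0 and 94.83 to 151.9 RPM in adults. All 40 genes were detected in every E14 and P0 library, against 31 to 38 in each adult library. The median gene stood at 60.6% of its E14 mean at P0 (range 42.6% to 111.1%), and at 5.00% of its P0 mean in adults (range 1.34% to 16.65%).

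**Figure D1:**
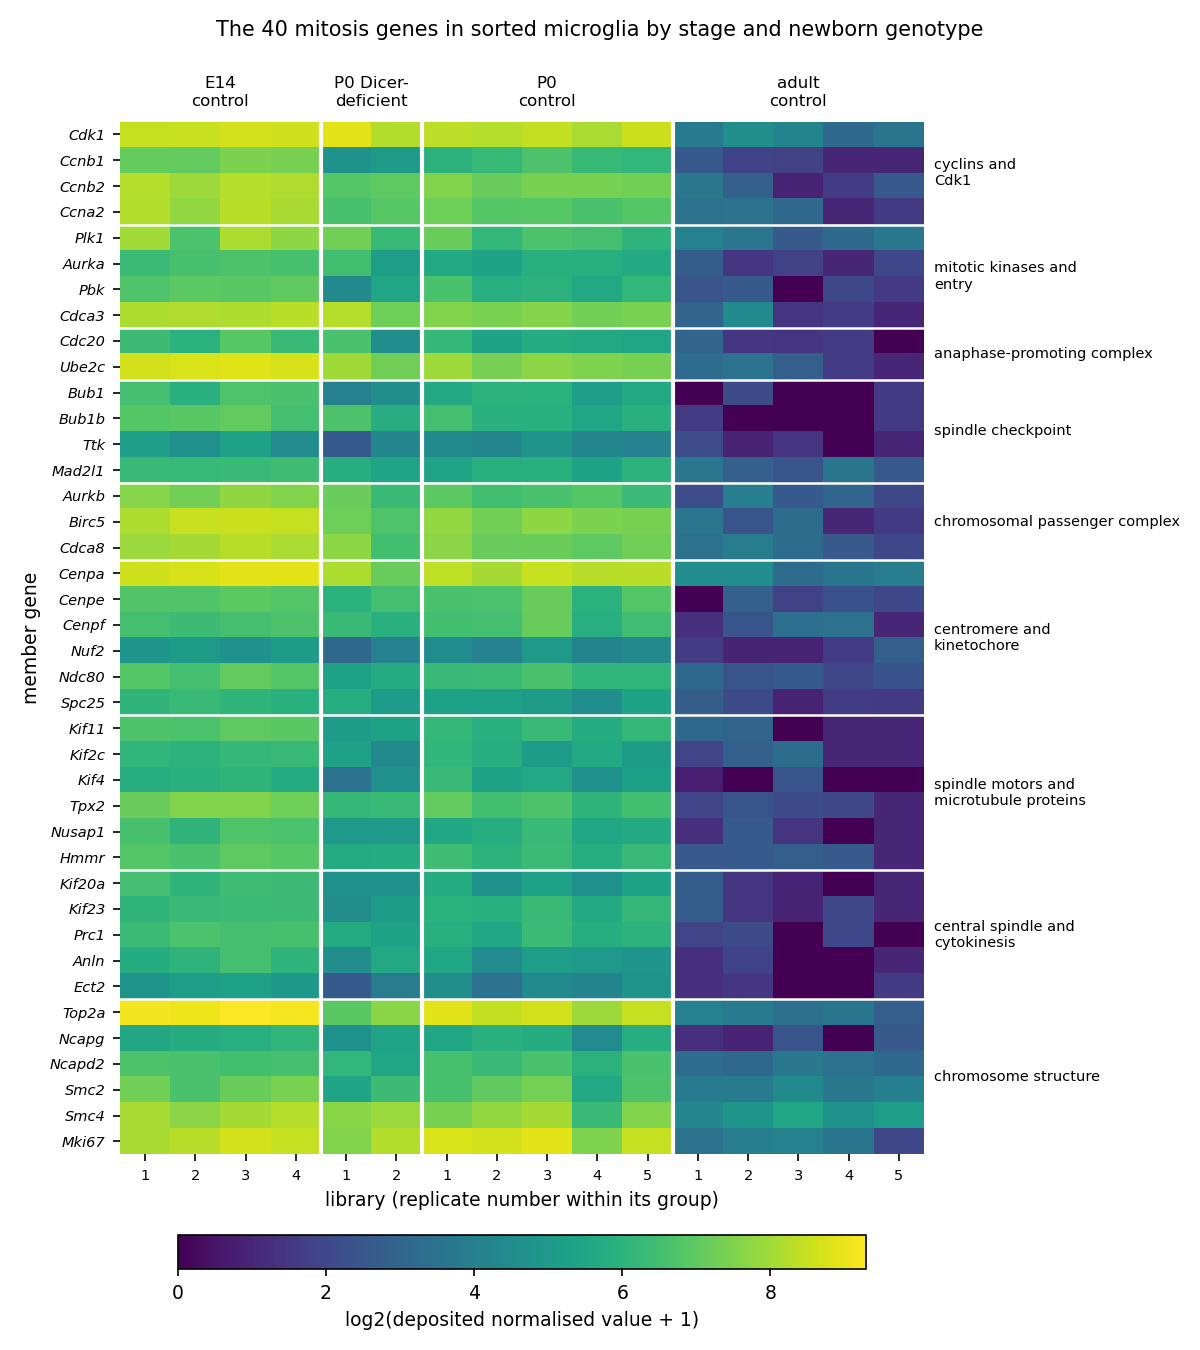
Levels of the 40 mitosis genes in each library of the stage table, grouped by role; colour gives log2(normalised value + 1), with libraries in columns by group (E14, P0 Dicer-deficient, P0 control, adult) and genes in rows. The E14 and P0 columns are bright, whereas the 5 adult columns are dark and hold 31 to 38 detected genes each.

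In adult against P0 microglia every one of the 40 genes fell, as compared with 24.0% of all 13447 genes tested (limma, adjusted p, lower). No adult library reached the lowest P0 library for any of them, as compared with 17.5% of all genes. The median log2 fold change was -4.25, against -0.08 over all genes, and lay between -5.04 and -3.18 under 18 alternative settings. In adult against E14 microglia all 40 fell as well, as compared with 30.8% of all genes, with a median of -4.90 against -0.13 over all genes. Both comparisons use the same adult libraries. In adult against E14 the lowest fold changes after that of Ube2c were those of Bub1b (-6.18), Birc5 (-6.03), Cdca3 (-5.89), Ccnb2 (-5.83) and Bub1 (-5.70), and the least negative those of Smc4 (-3.11), Smc2 (-3.16), Ncapd2 (-3.23), Mad2l1 (-3.28), Nuf2 (-3.39) and Ttk (-3.79). The 40 genes differed in size of change, from -5.30 for Bub1b to -2.49 for Smc4 in adult against P0.

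**Figure D2:**
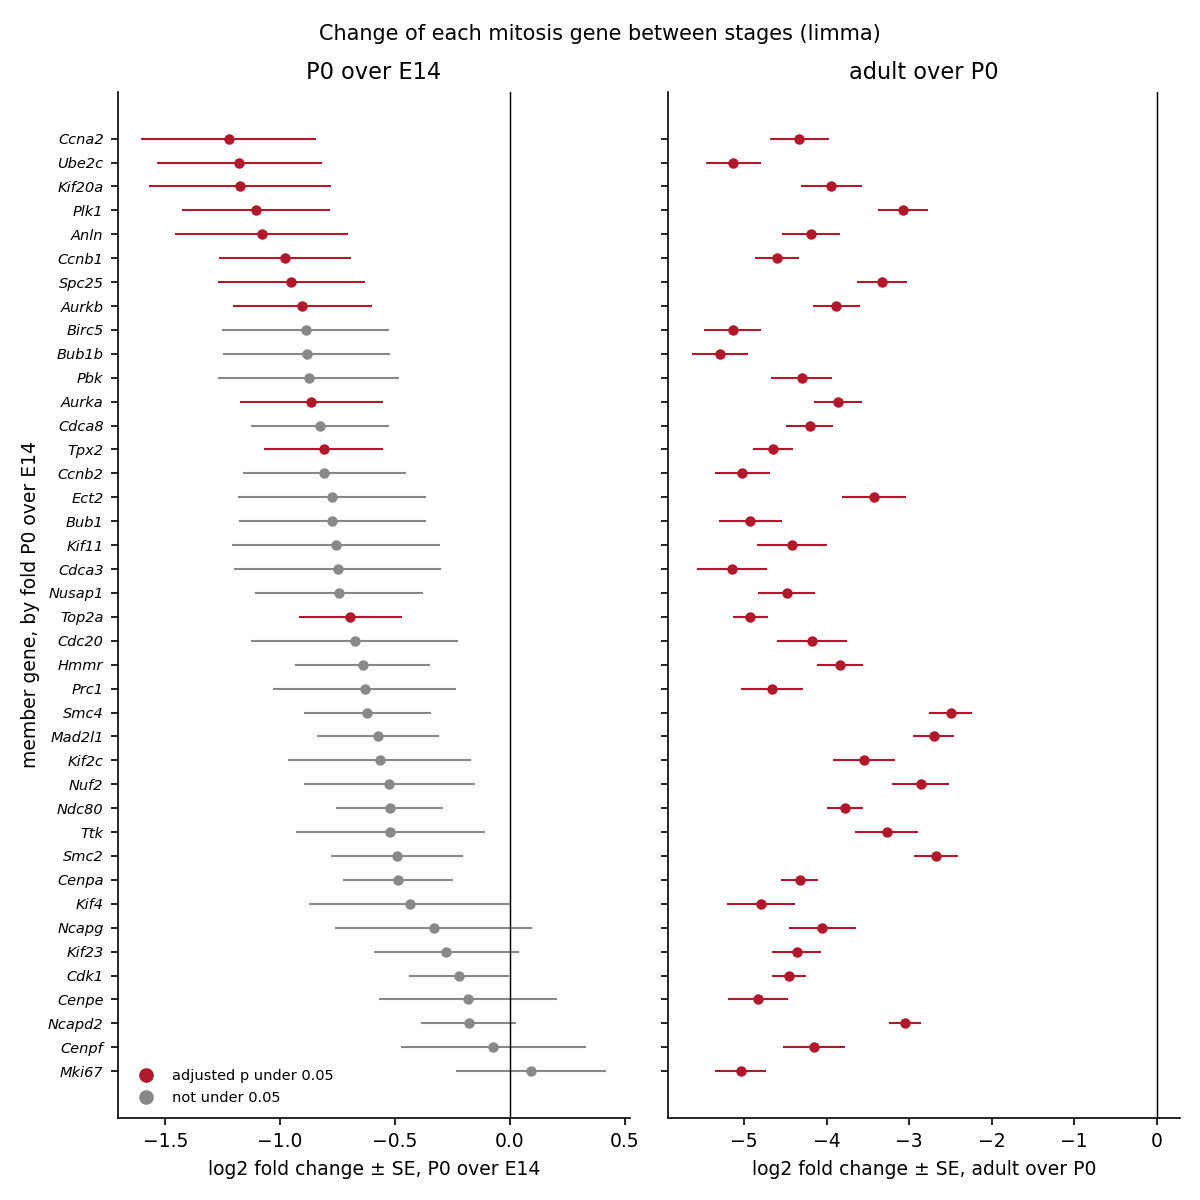
Log2 fold change of each of the 40 genes, with its standard error, in P0 against E14 and in adult against P0 microglia, on the log2(normalised value + 1) scale, with genes ordered by the first of these and called genes in red. In adult against P0 all points lie between -5.30 and -2.49, while in P0 against E14 they lie between -1.22 and 0.09.

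The promoters of a few of these genes are shown because the genes fell together between birth and adulthood. Mitotic promoters often hold the cell cycle genes homology region, with the letters TTTGAA, which is bound by the MuvB core of the DREAM and B-Myb complexes, and CCAAT boxes, which are bound by NF-Y. RefSeq promoter sequences (build GRCm38.p6, 250 bases before to 50 after the start) were matched for 34 of the 40 genes, which have 36 promoters. The promoters of Ccna2, Pbk, Aurkb, Tpx2, Kif20a and Smc4 were not used here. The lines that follow give the 140 bases before the start, 5′ to 3′ on the gene's strand, with TTTGAA or its reverse complement TTCAAA, and CCAAT or its reverse complement ATTGG, in capitals.
Cdk1: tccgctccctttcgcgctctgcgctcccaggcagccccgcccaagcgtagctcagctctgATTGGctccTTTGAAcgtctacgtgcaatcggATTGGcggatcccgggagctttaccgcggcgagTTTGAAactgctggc
Ube2c: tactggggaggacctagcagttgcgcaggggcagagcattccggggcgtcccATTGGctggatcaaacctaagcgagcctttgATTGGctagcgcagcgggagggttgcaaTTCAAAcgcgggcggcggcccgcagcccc
Top2a: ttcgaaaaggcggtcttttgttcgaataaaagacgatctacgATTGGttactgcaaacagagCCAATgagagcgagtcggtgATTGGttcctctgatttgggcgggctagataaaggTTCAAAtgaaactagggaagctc
Mki67: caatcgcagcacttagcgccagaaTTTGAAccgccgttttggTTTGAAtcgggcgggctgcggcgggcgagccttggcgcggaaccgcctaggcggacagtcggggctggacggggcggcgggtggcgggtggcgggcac
Ccnb1: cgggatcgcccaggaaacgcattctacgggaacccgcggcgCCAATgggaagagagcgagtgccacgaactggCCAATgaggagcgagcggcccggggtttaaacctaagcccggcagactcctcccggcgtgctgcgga
Kif2c: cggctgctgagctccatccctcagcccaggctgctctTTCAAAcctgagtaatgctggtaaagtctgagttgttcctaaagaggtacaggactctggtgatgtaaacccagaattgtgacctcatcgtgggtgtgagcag
These stretches lie at chr10:69352913-69353052 (minus strand) for Cdk1, chr2:164769789-164769928 (plus strand) for Ube2c, chr11:99024190-99024329 (minus strand) for Top2a, chr7:135716380-135716519 (minus strand) for Mki67, chr13:100786487-100786626 (minus strand) for Ccnb1 and chr4:117178773-117178912 (minus strand) for Kif2c.

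Cdk1, Ube2c and Top2a held both motifs in the printed stretch. Mki67 held TTTGAA only in that stretch. Its nearest CCAAT match began 141 bases before the start and was cut by the edge, so over the full promoter it held both. Ccnb1 held CCAAT only, and Kif2c held TTCAAA once, 103 bases before the start, and no CCAAT. Over the full 300 bases and both strands, TTTGAA occurred in 29 of the 36 promoters (80.6%), as compared with 17.9% of all 32851 promoters of that length. CCAAT occurred in 29 of 36 (80.6%) as compared with 37.4% of all promoters, and both occurred in 26 (72.2%) as compared with 6.95%. The matches of the 2 motifs overlapped each other in 1 promoter of these genes (2.78%), as compared with 0.143% of all promoters. Birc5, Mad2l1, Nuf2 and Nusap1 held neither motif in that window. Bound factors were not measured, and the letters describe sequence only.

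Cdk1, the kinase that drives mitotic entry, had 359.3, 367.2, 402.2 and 391.4 normalised reads at E14, 332.9, 306.2, 346.6, 277.9 and 370.2 at P0, and 13.64, 23.69, 17.26, 8.126 and 11.09 in adults. E14 and P0 overlapped and adults lay far below both, with a log2 fold change in adult against P0 of -4.45 ± 0.20 (SE; limma, adjusted p = 7.87e-13) and in P0 against E14 of -0.22 ± 0.22 (adjusted p = 0.499). Its B-type partner Ccnb1, whose accumulation activates Cdk1, had 135.8, 132.1, 173.6 and 164.6 normalised reads at E14, 62.52, 73.43, 102.6, 76.11 and 70.06 at P0, and 5.025, 2.632, 2.589, 1.016 and 1.008 in adults. The 3 stages were apart, and Ccnb1 fell in P0 against E14 by 0.98 ± 0.29 (adjusted p = 0.0176) and in adult against P0 by 4.60 ± 0.27 on the log2 scale. Ccna2, the cyclin of S phase and early mitosis, had 301.2, 218.4, 317.7 and 267.6 normalised reads at E14 and 149.7, 112.6, 115.5, 97.35 and 113.3 at P0. Every P0 library was below every E14 library, and the log2 fold change of -1.22 ± 0.38 (adjusted p = 0.0246) was the lowest of the 40 genes in P0 against E14. Ccnb2 averaged 286.5 ± 31.03 at E14, 163.1 ± 15.97 at P0 and 5.26 ± 4.44 in adults, and it fell in adult against P0 by 5.02 ± 0.34 on the log2 scale (adjusted p = 1.68e-10).

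The kinases of entry followed the same order of stages. Plk1, which triggers Cdk1 activation and later spindle steps, had 253.2, 100.9, 281.7 and 206.6 normalised reads at E14 and 143.9, 70.94, 101.1, 92.63 and 64.22 at P0. The second E14 library lay among the P0 libraries, and Plk1 was called lower in P0 against E14 at -1.11 ± 0.32 (limma, adjusted p = 0.0175). Adults averaged 10.5 ± 4.04, and the log2 fold change in adult against P0 of -3.07 was among the 6 least negative. Aurka, the kinase of the spindle poles, averaged 92.71 ± 10.15 at E14, 50.57 ± 6.18 at P0 and 2.83 ± 1.81 in adults, and fell in P0 against E14 by 0.86 ± 0.31 (adjusted p = 0.0492). Cdca3, which promotes destruction of the Cdk1 inhibitor Wee1, averaged 293.9 ± 16.72 at E14, 174.4 ± 12.15 at P0 and 6.60 ± 8.44 in adults. It fell in adult against P0 by 5.14 ± 0.42 on the log2 scale. Pbk, a mitotic kinase, averaged 119.8 ± 10.27 at E14, 66.57 ± 19.12 at P0 and 2.93 ± 2.05 in adults.

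Ube2c, the E2 ubiquitin-conjugating enzyme of the anaphase-promoting complex, had 405.4, 436.3, 451.5 and 427.1 normalised reads at E14, 241.3, 164.3, 206, 181.1 and 164.6 at P0, and 8.614, 10.53, 6.04, 2.032 and 1.008 in adults. The stages were apart at both steps. Ube2c fell by 1.18 ± 0.36 on the log2 scale in P0 against E14 (limma, adjusted p = 0.0217) and by 5.13 ± 0.34 in adult against P0, and its -6.31 in adult against E14 was the lowest of the 40. Cdc20, the activator of that complex, averaged 83.66 ± 23.24 at E14, 51.66 ± 12.68 at P0 and 2.54 ± 2.72 in adults. Among the checkpoint genes, Bub1b, a kinase-like inhibitor of Cdc20, averaged 113.7 ± 16.89 at E14 and 62.24 ± 16.85 at P0. In adults it was at 2.154, 0, 0, 0 and 2.016, which rest on 3 and 2 reads in libraries 1 and 5. Bub1b had the lowest log2 fold change in adult against P0, -5.30 ± 0.34 (adjusted p = 1.11e-10). Mad2l1, which binds Cdc20 at unattached kinetochores, averaged 77.5 ± 4.48 at E14, 52.47 ± 10.28 at P0 and 7.63 ± 3.44 in adults, so its adult level kept a larger share of the P0 level than that of Bub1b. Bub1, the kinase that recruits checkpoint proteins, averaged 88.59 ± 20.45 at E14, 51.26 ± 11.07 at P0 and 1.10 ± 1.60 in adults, and Ttk, the kinase that starts the checkpoint, averaged 29.84 ± 8.32 at E14, 20.2 ± 4.25 at P0 and 1.44 ± 1.35 in adults.

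In the chromosomal passenger complex, which corrects faulty attachments, the kinase Aurkb averaged 188.4 ± 22.69 at E14, 100.9 ± 17.76 at P0 and 6.76 ± 4.83 in adults. It was called lower in P0 against E14 at -0.90 ± 0.30 (limma, adjusted p = 0.036). Birc5, also known as survivin, averaged 343.1 ± 42.85 at E14, 185.2 ± 27.71 at P0 and 5.51 ± 4.45 in adults and fell in adult against P0 by 5.14 ± 0.34 on the log2 scale. Cdca8, or borealin, averaged 271.5 ± 33.85 at E14, 154.0 ± 29.8 at P0 and 8.16 ± 4.31 in adults. At the kinetochore, the Ndc80 complex subunit Spc25 averaged 67.08 ± 6.60 at E14, 34.8 ± 7.39 at P0 and 2.83 ± 1.88 in adults, and it was the only one of 6 centromere and kinetochore genes called in P0 against E14, at -0.95 ± 0.32 (adjusted p = 0.0364). The kinesin Cenpe averaged 112.6 ± 6.15 at E14 and 102.4 ± 28.85 at P0, a log2 fold change of -0.18 ± 0.39, and Cenpf averaged 92.57 ± 8.07 at E14 and 91.27 ± 29.32 at P0, a log2 fold change of -0.07 ± 0.40. Neither of these differences exceeded the spread between libraries (adjusted p = 0.771 and 0.919). Cenpa, the centromeric histone H3, averaged 444.2 ± 43.63 at E14, 317.1 ± 37.86 at P0 and 15.79 ± 6.45 in adults. The kinetochore genes Ndc80 and Nuf2 stood at 4.91 ± 1.84 and 2.39 ± 2.13 in adults.

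Among spindle proteins, Tpx2, which activates Aurora A on microtubules, averaged 165.4 ± 22.19 at E14, 95.8 ± 25.19 at P0 and 2.95 ± 1.24 in adults, and was called lower in P0 against E14 at -0.81 ± 0.26 (limma, adjusted p = 0.0291). The motors Kif11, which pushes spindle poles apart, and Kif4, which works on chromosome arms, averaged 3.39 ± 3.75 and 1.01 ± 1.88 in adults. Kif2c, a kinesin that takes microtubules apart at centromeres, averaged 69.13 ± 5.51 at E14, 47.99 ± 14.73 at P0 and 3.93 ± 3.36 in adults. In cytokinesis, the central spindle kinesin Kif20a averaged 80.52 ± 11.04 at E14 and 36.34 ± 11.7 at P0 (-1.17 ± 0.40, adjusted p = 0.0364), and the contractile ring scaffold Anln averaged 68.98 ± 17.1 at E14 and 32.37 ± 8.91 at P0 (-1.08 ± 0.38, adjusted p = 0.043). Both were called lower. The central spindle motor Kif23 averaged 76.31 ± 6.44 at E14 and 63.3 ± 10.36 at P0, a log2 fold change of -0.28 ± 0.32 that did not pass (adjusted p = 0.572).

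Mki67, which coats mitotic chromosomes and is the usual marker of proliferating cells, had 272.1, 310.5, 398.4 and 355.1 normalised reads at E14, 430.3, 406.3, 483.4, 180.5 and 355 at P0, and 10.05, 14.91, 15.53, 11.17 and 3.024 in adults. It was the 1 gene of the 40 with a positive log2 fold change in P0 against E14, 0.09 ± 0.33 (limma, adjusted p = 0.873), and 1 P0 library was below all E14 libraries while 3 were above them all. In adult against P0 it fell by 5.04 ± 0.31 on the log2 scale (adjusted p = 5.81e-11). Top2a, the topoisomerase that untangles sister DNA, had 565.7, 525.8, 626 and 575 normalised reads at E14, 466.7, 342.3, 402.1, 240.7 and 355 at P0, and 15.79, 13.16, 9.492, 11.17 and 6.047 in adults. Its stages were apart, and it fell in P0 against E14 by 0.69 ± 0.22 (adjusted p = 0.0302) and in adult against P0 by 4.93 ± 0.21. Smc4, a core subunit of condensin, had 270.9, 203.3, 261.8 and 306.8 normalised reads at E14, 164.3, 218.4, 261.5, 75.52 and 184.5 at P0, and 18.66, 27.19, 44.01, 25.4 and 35.28 in adults. It kept the largest share of its P0 level in adults, 16.65%, and its fold change in adult against P0 was the least negative of the 40. The condensin subunits Smc2 and Ncapd2 were also among the 6 least negative, at -2.67 and -3.05, as were Mad2l1 at -2.70 and Nuf2 at -2.86. In P0 against E14 Ncapd2 had a log2 fold change of -0.18 that did not pass (adjusted p = 0.576). As a share of the P0 level, the 6 genes of chromosome structure stood in adults between 2.95% for Mki67 and 16.65% for Smc4, and the 4 genes of cyclins and Cdk1 between 3.19% and 5.33%. The ranges overlapped, and the difference between roles was not tested.

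In P0 against E14 as a whole, 11 of the 40 genes were called lower and 0 higher (limma), as compared with 14.4% of all 13824 genes called lower and 22.7% called in either direction. The 11 are Ccna2, Ube2c, Kif20a, Plk1, Anln, Ccnb1, Spc25, Aurkb, Aurka, Tpx2 and Top2a. The log2 fold change was negative for 39 of 40 genes with a median of -0.72, against -0.11 over all genes. For 21 genes every P0 library was below every E14 library, as compared with 15.4% of all genes. The number called depended on the setting. It was 2 with a pseudocount of 0.1, where 10.9% of all genes were called lower. It was 28 when only the groups compared were fitted (20.4% of all genes) and 27 with the replicate number as a block (16.1%). Leaving out single libraries gave 0 to 11 calls, with 0 without E14 library 3, 3 without E14 library 1, 4 without E14 library 2 and 3 without E14 library 4. It was 4 without P0 library 4, 5 without P0 library 2, 5 without P0 library 5 and 6 without P0 library 3, while 9.91% to 13.1% of all genes were called lower in these fits. The median stayed between -0.78 and -0.65 in all 17 alternative settings.

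Markers of other cells moved with stage. Summed neural progenitor markers were 789.7 to 1090 at E14, 165.5 to 246 at P0 and 22.44 to 30.7 in adults, and summed neuronal markers were 198 to 684.9, 57.87 to 111.9 and 7.018 to 13.21 at the same stages. Of the progenitor genes Sox2 was at 0 in all adult libraries. Vim carried much of the progenitor sum at P0, as given below with the newborn genotypes. Border macrophage markers summed to 472.9 to 740.8 at E14, 783.5 to 1085 at P0 and 14.91 to 71.11 in adults, and erythroid markers to 486.9 to 836.8, 11510 to 47780 and 41.32 to 1792. Their part in the levels of the mitosis genes was not tested.

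Other genes of division were counted from lists. In adult against P0, 45 of 55 further mitosis genes fell and 0 rose (median -2.98), as compared with 24.0% of all genes called lower and 19.2% called higher. In the same comparison 34 of 36 genes of DNA replication fell (median -2.67). Of 24 regulators of mitotic transcription, 10 fell and 3 rose, namely Lin52, E2f3 and Rb1, with a median of -0.13. Foxm1, the forkhead factor that activates G2 and mitosis genes, averaged 88.4 ± 15.9 at E14, 61.1 ± 9.83 at P0 and 7.38 ± 4.91 in adults, and it fell in adult against P0 by 3.08 ± 0.30 on the log2 scale (limma, adjusted p = 5.14e-08). Mybl2, or B-Myb, fell in adult against P0 by 2.84 ± 0.40 (adjusted p = 5.63e-06), and neither gene was called in P0 against E14 (adjusted p = 0.259 for Foxm1 and 0.789 for Mybl2). In that comparison 11 of 36 replication genes fell, with Gins2, Fen1 and Rrm1 giving the smallest p-values, against 3 of 55 further mitosis genes (Bub3, Cks1b and Cdc23) and 3 of 24 regulators (Tfdp1, Rbbp4 and E2f5), as compared with 14.4% of all genes called lower and 8.29% called higher. The counts for the further mitosis genes and the regulators thus lay below the share over all genes.

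At birth, Dicer-deficient microglia held less of most of these transcripts than their controls, but no gene passed the test over all genes. The summed level was 3842 and 3153 in the 2 Dicer-deficient libraries, against 4940, 4092 and 4978 in the 3 controls compared and 3388 and 4244 in the other 2 P0 controls. As a share of all reads it was 1489 RPM (95% Wilson interval 1415 to 1567) and 1663 RPM (1601 to 1727) in Dicer-deficient microglia, below all 5 controls at 1849 to 2780 RPM. The first Dicer-deficient library had 992317 reads in all, the fewest of the stage table. Its normalised values summed to 2579575.8 over all genes, against 1754895.1 to 1957740.0 in the other libraries of the stage table. Its normalised levels are thus high relative to its share of reads. In limma, 0 of 40 genes were called, as compared with 1.48% of all 13064 genes tested, and 11 had an unadjusted p under 0.05, as compared with 20.9% of all genes. edgeR called 1 gene lower with TMM factors (0.781% of all genes) and 3 with RLE factors (0.949%), and DESeq2 called 2 (1.06%). The log2 fold change was negative for 31 of 40 genes with a median of -0.60, against -0.06 over all genes. Both Dicer-deficient libraries were below all 3 controls for 19 genes and above all 3 for 0, as compared with 20.6% and 17.3% of all genes.

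**Figure D3:**
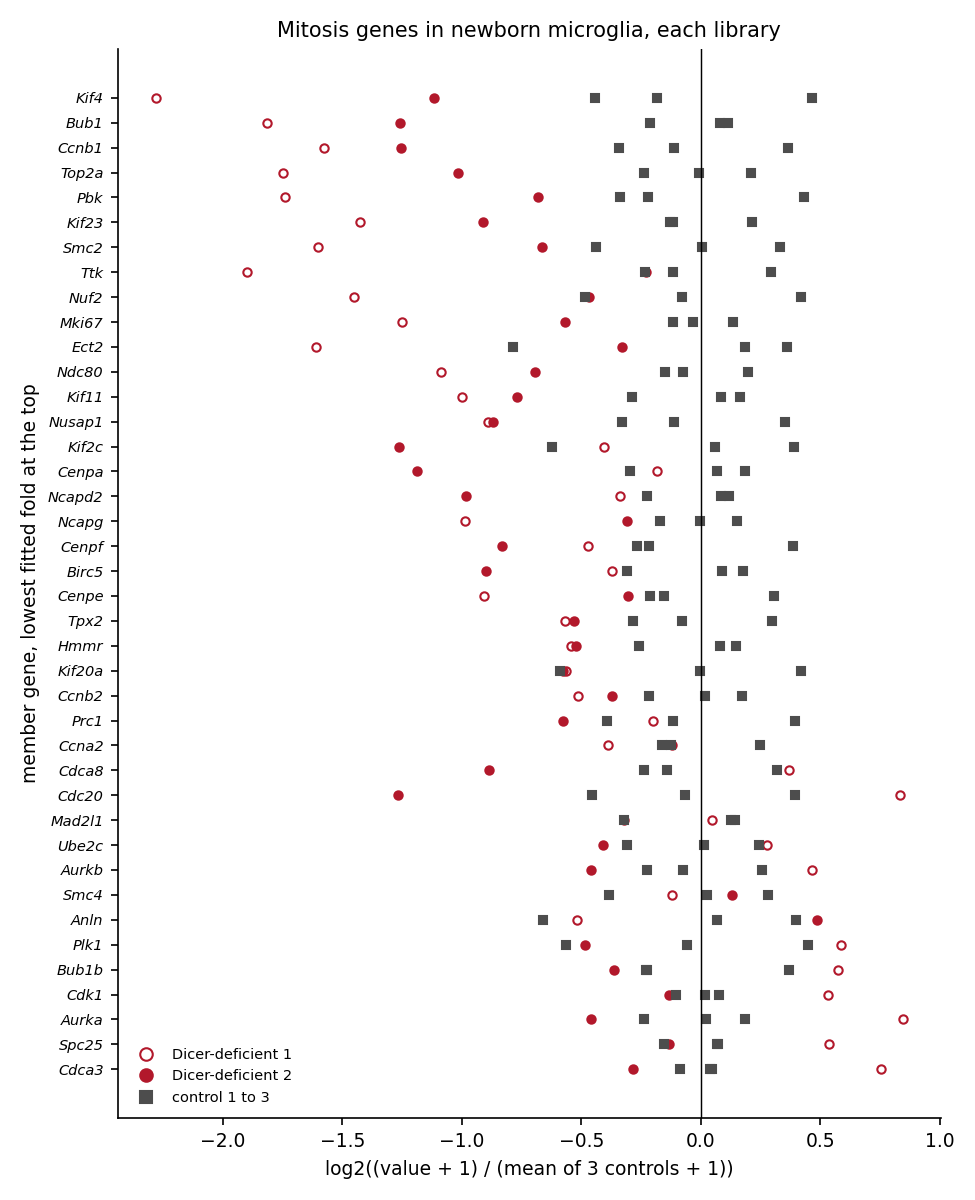
Log2 ratio, after adding 1 to each normalised value, of each newborn Dicer-deficient library (circles) and each of the 3 controls (squares) to the mean of the 3 controls, for the 40 mitosis genes ordered by fitted fold change. The second Dicer-deficient library lies below all 3 controls for 31 genes and the first for 23, while the first lies above them all for 10.

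Top2a had 119.6 and 199 normalised reads in newborn Dicer-deficient microglia, against 466.7, 342.3 and 402.1 in their controls. Both were below every control, with a log2 fold change of -1.37 ± 0.30 (SE; limma, adjusted p = 0.0564), the smallest p of the 40 genes. It was called under 10 of the 14 alternative settings. Mki67 had 184.6 and 296.1 normalised reads in Dicer-deficient microglia, against 430.3, 406.3 and 483.4 in controls, again with no overlap (-0.91 ± 0.29, adjusted p = 0.138). Ccnb1 had 26 and 32.77 in Dicer-deficient microglia, against 62.52, 73.43 and 102.6 in controls, below them all (-1.38 ± 0.35, adjusted p = 0.0836). Cdk1, in contrast, had 475.7 and 299.6 in Dicer-deficient microglia, against 332.9, 306.2 and 346.6 in controls. On normalised values its first Dicer-deficient library was above every control and its second below, with a log2 fold change of 0.20 ± 0.28 (limma, adjusted p = 0.711).

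The lowest log2 fold changes at birth belonged to genes of several roles. Kif4 had 10.4 and 24.58 normalised reads in Dicer-deficient microglia, against 75.6, 39.83 and 47.89 in controls (-1.65 ± 0.47, limma, adjusted p = 0.106). Bub1 had 15.6 and 23.41 in Dicer-deficient microglia, against 49.43, 62.23 and 60.81 in controls (-1.53 ± 0.36, adjusted p = 0.0747). Kif23 had 23.4 and 33.94 in Dicer-deficient microglia, against 59.61, 59.12 and 75.25 in controls (-1.16 ± 0.34, adjusted p = 0.121). All 3 genes had both Dicer-deficient libraries below every control, as did Pbk, at 20.8 and 44.48 in Dicer-deficient microglia against 56.63 to 97.41 in controls (-1.17 ± 0.42, adjusted p = 0.165).

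The highest log2 fold changes at birth came from genes on which the 2 Dicer-deficient libraries differed. Cdca3 had 306.7 and 148.7 normalised reads in Dicer-deficient microglia, against 186.1, 170.5 and 187 in controls (0.24 ± 0.33, limma, adjusted p = 0.708). Aurka had 88.38 and 35.11 in Dicer-deficient microglia, against 49.43, 41.07 and 55.49 in controls (0.20 ± 0.42, adjusted p = 0.813). For both genes the first library was above all controls and the second below on normalised values, a split that 8 of the 40 genes showed. Normalised values of the first library were high relative to its share of reads, and the split was not tested on shares of reads. Spc25 (0.21 ± 0.36), Bub1b (0.13 ± 0.37) and Plk1 (0.11 ± 0.40) were the other high genes by fold change, and Anln, Smc4 and Aurkb were positive too. By role, the Dicer-deficient mean stood at 32.1% to 68.8% of the control mean for the 6 spindle proteins, all of them below it. The other roles spread on both sides: 45.4% (Pbk) to 126.9% for mitotic entry, 36.95% to 118% for the cyclins and Cdk1, 33.9% to 113.5% for the checkpoint and 98.2% to 110.0% for the 2 genes of the anaphase-promoting pathway. The passenger complex lay at 65.3% to 105.4%, the kinetochore at 52.5% to 118.7%, cytokinesis at 44.3% to 105.0% and chromosome structure at 39.5% to 100.8%. Differences between roles were not tested.

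The number of newborn genes called depended on the libraries used. Without the second Dicer-deficient library, 15 of the 40 genes were called lower and 2, Aurka and Cdca3, higher, as compared with 18.9% and 18.3% of all genes in that fit. Without the first, 4 were called lower, namely Bub1, Ccnb1, Cenpa and Top2a, as compared with 2.58% of all genes. In both cases the lone Dicer-deficient library was assumed to vary like the controls. With all 5 P0 controls, 4 genes were called lower, namely Bub1, Ccnb1, Kif23 and Top2a (4.14% of all genes), and with the replicate number as a block 2 were, Kif4 and Top2a (2.05%). Summed neural progenitor markers were 574.7 to 920.2 in Dicer-deficient libraries against 165.5 to 246 in P0 controls, carried mainly by Vim (504.5 to 844.9 against 90.23 to 148.1), while the progenitor gene Fabp7 was at 0 to 19.9 against 14.16 to 58.53. Erythroid markers summed to 7296 to 12830 in Dicer-deficient libraries against 11510 to 47780 in P0 controls. Their part in the result was not tested.

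In the same newborn comparison, 3 of 36 DNA replication genes were called lower, as compared with 0.444% of all genes: Mcm2 (-2.24), Mcm4 (-2.21) and Mcm6 (-1.49), subunits of the replicative helicase. The median of that list was -1.08. Of 24 regulators, 1 was called, the Cdk inhibitor p21 encoded by Cdkn1a, which rose by 1.53 ± 0.31 on the log2 scale (limma, adjusted p = 0.0429), as compared with 1.04% of all genes called higher. Foxm1 had a log2 fold change of 0.39 (adjusted p = 0.515) and Mybl2 of -0.36 (adjusted p = 0.686). Of 55 further mitosis genes, 0 were called.

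In untreated adults the 40 genes were sparse, with 106 to 537 reads over all of them in a library. After the filter on low values 32 genes were tested. Cdc20 was at 0 in all 7 libraries, and 7 others were below the filter. In Dicer-deficient against control microglia 0 of 32 genes were called by limma, as compared with 5.15% of all 11045 genes, and 0 by edgeR and DESeq2, and 3 had an unadjusted p under 0.05, namely Ccna2, Kif20a and Ncapg, as compared with 18.8% of all genes. Kif20a and Ncapg were higher in every Dicer-deficient library than in any control, 2 of 32, as compared with 9.79% of all genes. As a share of all reads, the 40 genes took 269.6, 121.4 and 199.3 RPM in Dicer-deficient microglia, against 107.9 to 144.7 RPM in the 4 controls. Markers of other cells differed as well: 6 astrocyte markers summed to 632.2 to 1162 in Dicer-deficient microglia, against 1406 to 1563 in controls, and 6 markers of endothelium and pericytes to 82.9 to 129.8, against 154.1 to 211.3, both without overlap. Their part in the levels of the mitosis genes was not tested. The median log2 fold change was 0.94, against 0.05 over all genes, and it was 0.26 without the first Dicer-deficient library. Dicer-deficient libraries held 1058767 to 1991621 reads, with the most in the first, and controls 898451 to 1295910. Of the 40 genes, 5, 16 and 9 were at 0 in the Dicer-deficient libraries, against 15 to 20 in controls. The part of depth in these fold changes was not tested.

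Mki67 had 49.23, 0 and 18.54 normalised reads in adult Dicer-deficient microglia, against 19.8, 0, 0 and 5.136 in controls (1.56 ± 1.41, limma, adjusted p = 0.616). Top2a had 127, 0 and 18.54 in Dicer-deficient microglia, against 9.899, 19.94, 10.74 and 30.81 in controls (-0.33 ± 1.16, adjusted p = 0.92). For both genes the first Dicer-deficient library was the highest of the table and the second was at 0. The other extremes of the fitted log2 fold change were high for Ncapg (2.56 ± 1.19, adjusted p = 0.256), Ccnb2 (2.43), Ect2 (2.18), Bub1b (1.82) and Kif11 (1.79), and low for Kif2c (-1.92), Spc25 (-1.52), Cdk1 (-0.78), Cdca3 (-0.74) and Cdca8 (-0.71). For Cdca3 the means ran the other way, 6.91 in Dicer-deficient microglia and 5.51 in controls, as they did for Top2a. None of these differences passed the test.

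Ccna2 and Kif20a, chosen after their values were seen, carried more reads in this table than the other 38 genes. Ccna2 had 308.3, 193.1 and 333.7 normalised reads in adult Dicer-deficient microglia, against 44.55, 119.6, 198.7 and 174.6 in controls (1.21 ± 0.40, limma, adjusted p = 0.0994). It was called without the second Dicer-deficient library (adjusted p = 0.0429). Kif20a had 194.3, 251 and 190 in Dicer-deficient microglia, against 108.9, 131.6, 128.9 and 138.7 in controls (0.73 ± 0.26, adjusted p = 0.119). In the RefSeq gene table Ccna2 overlaps Exosc9, a subunit of the RNA exosome, and Kif20a overlaps Brd8 and Cdc23, and the sources used here do not say whether reads were counted by strand. Exosc9 was at 152.9, 92.67 and 162.2 in Dicer-deficient microglia, against 19.8 to 107.8 in controls, and Cdc23 at 199.5, 266.4 and 203.9, against 108.9 to 148.9. Brd8 was at 533.8, 525.1 and 556.2 in Dicer-deficient microglia, against 386.7 to 445.5 in controls. The levels of Exosc9, Cdc23 and Brd8 thus ran in the same direction, and reads of the overlapping genes cannot be told apart. In untreated adults Ccna2 and Kif20a made up 29.25% to 70.55% of the summed level of the 40 genes. They made up 1.286% to 7.92% in steady total brain and 0.5848% to 5.685% in adults of the stage table. The reason was not tested. Ncapg overlaps Lcorl, which was at 69.96, 104.3 and 69.53 in Dicer-deficient microglia, against 95.7 to 118.1 in controls, so Lcorl did not run in the direction of Ncapg. In all, 8 of the 40 genes overlap another protein-coding gene, the other 5 being Aurka, Cdc20, Nusap1, Prc1 and Anln, and the same limit holds for them. Without Ccna2 and Kif20a the rest took 172.2, 35.74 and 92.56 RPM in Dicer-deficient microglia, against 61.73 to 76.80 in controls, with the second library lowest of all 7.

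**Figure D4:**
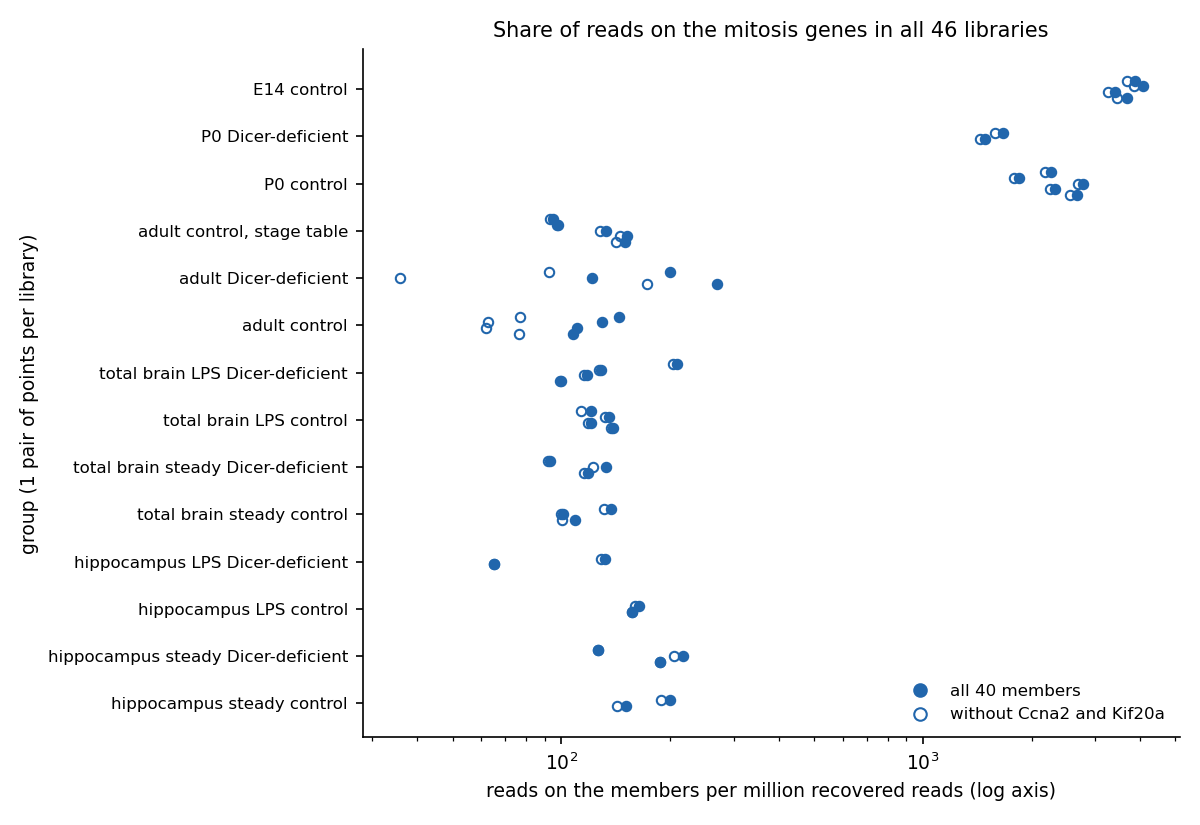
Reads on the 40 mitosis genes, scaled to 1000000 reads of the library (RPM), in each of the 46 libraries, on a log axis, with filled points for all 40 genes and open points without Ccna2 and Kif20a. For all 40 genes, E14 libraries lie at 3408 to 4057 and P0 controls at 1849 to 2780, and all adult libraries of the 4 tables lie between 64.92 and 269.6.

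In total brain the same genes stayed at adult levels, 93.22 to 209.3 RPM in the 14 libraries. Dicer-deficient against control microglia at steady state gave 0 of 40 genes called by limma, as compared with 2.18% of all 13423 genes, with 0 at an unadjusted p under 0.05 (15.7% of all genes), 0 by edgeR and 0 by DESeq2. The median log2 fold change was -0.22. Mki67 had 11.6, 8.4 and 8.6 normalised reads in steady Dicer-deficient microglia, against 10.4, 17.7 and 25.3 in steady controls, and Top2a had 19.3, 18.3 and 12.4, against 13.2, 13.5 and 14.9. Both genes overlapped between genotypes. The lowest log2 fold changes were those of Bub1b (-1.13), Anln (-1.13), Ttk (-1.11), Mad2l1 (-1.03), Kif11 (-0.92) and Pbk (-0.86), and the highest those of Cdca3 (1.17), Plk1 (1.15), Nusap1 (1.04), Aurkb (0.61), Ncapd2 (0.56) and Hmmr (0.47). The smallest adjusted p was 0.399.

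After LPS, 1 gene of the 40 stood apart from the rest. Kif2c, the microtubule-depolymerising kinesin, had 127.8, 197.4, 177.4 and 212.7 normalised reads in total brain Dicer-deficient microglia after LPS, against 1.9, 7 and 3.8 in steady Dicer-deficient microglia. In controls it had 126.9, 149.6, 131.6 and 29.7 after LPS, against 3.8, 10.9 and 5.7 at steady state. Every LPS library was above every steady library in both genotypes. The means differed 42.2-fold in Dicer-deficient and 16.1-fold in control microglia, with log2 fold changes of 5.20 ± 0.50 (SE; limma, adjusted p = 3.5e-06) and 3.70 ± 0.50 (adjusted p = 0.000764). These rest on 1060 reads after LPS against 16 at steady state in Dicer-deficient microglia, and on 505 against 22 in controls. Kif2c was called under all 14 alternative settings in each genotype, with the log2 fold change between 4.33 and 5.57 in Dicer-deficient and between 3.12 and 4.24 in control microglia. It made up 40.65% to 67.4% of the summed level of the 40 genes after LPS in Dicer-deficient microglia, against 0.640% to 2.08% at steady state. In controls its share was 9.893% to 52.22% after LPS, against 1.358% to 4.124% at steady state.

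The fourth LPS control stood apart from the other 3. Its Kif2c level of 29.7 was the lowest after LPS, and its 13 microglial markers summed to 86498, against 44332 to 51894 in the other 3 LPS controls and 89970 to 94130 in steady controls. Without it the log2 fold change of Kif2c in controls was 4.23 (limma, adjusted p = 4.4e-07). The change with LPS differed between genotypes by 1.5 ± 0.71 on the log2 scale for Kif2c, an interaction that did not pass (adjusted p = 0.528, unadjusted p = 0.0488). Without the fourth LPS control it was 0.96 ± 0.54 (adjusted p = 0.545), and it lay between 0.96 and 1.87 over all 21 alternative settings. By limma 0 of 40 genes passed the interaction, as compared with 0.171% of all genes. edgeR and DESeq2 called 0 as well. The other extremes of the interaction were high for Ccnb2 (1.47), Bub1b (1.35), Ccnb1 (1.31), Kif4 (1.03) and Mki67 (1.02) and low for Hmmr (-1.52), Cenpe (-1.43), Kif23 (-1.36), Cdca3 (-1.33), Ndc80 (-1.32) and Ncapd2 (-1.24), with Top2a at -0.27.

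**Figure D5:**
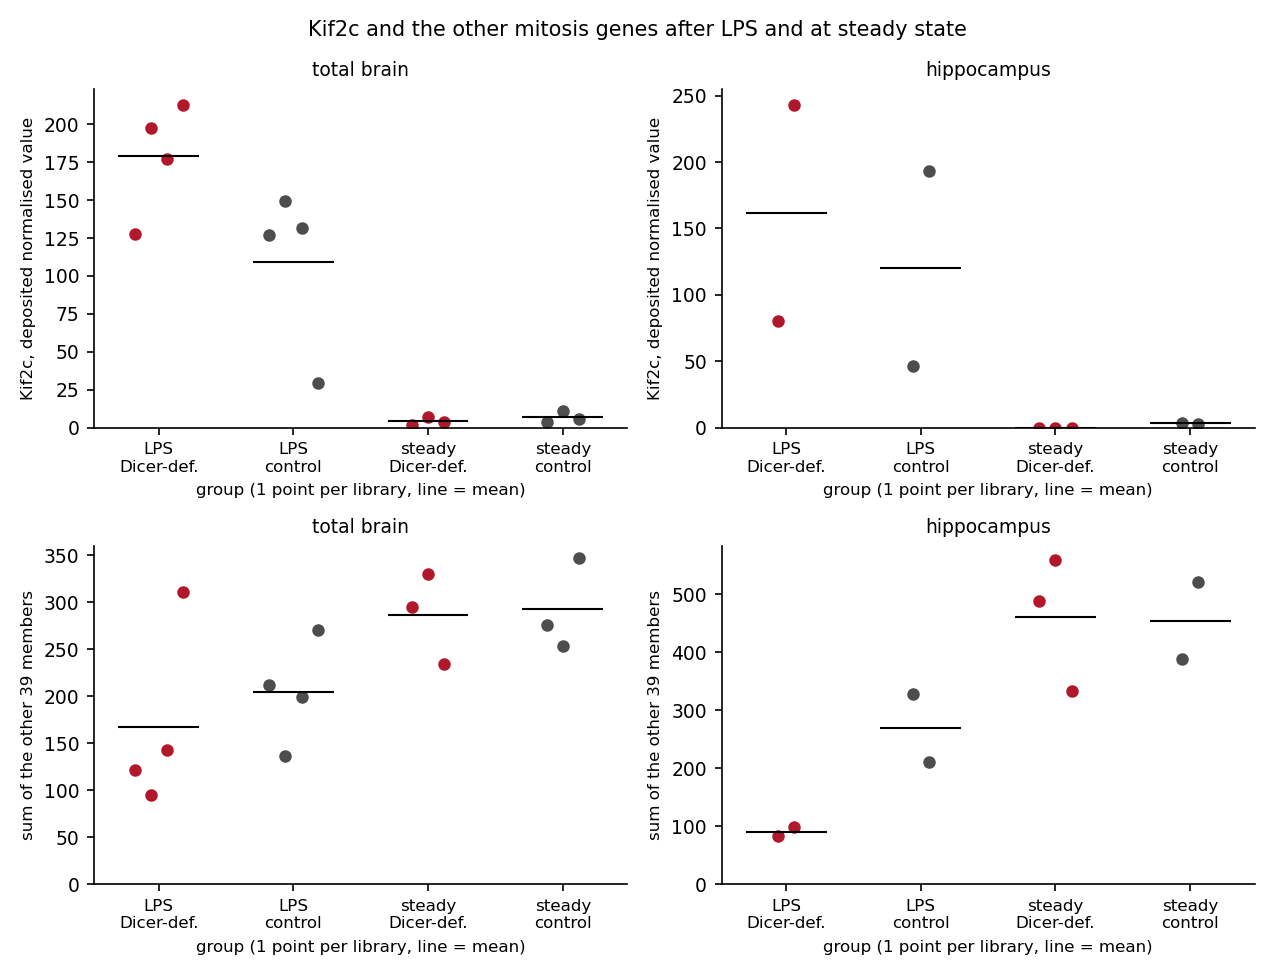
Kif2c (top) and the sum of the other 39 mitosis genes (bottom) in each library of total brain (left) and hippocampus (right), as normalised reads, with a point for each library and a line at the group mean. Kif2c lies at 29.7 to 242.9 in the LPS libraries and at 0 to 10.9 in the steady libraries, while the means of the other 39 are lower in the LPS groups than in the steady groups.

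The other 39 genes summed to 121.3, 95.5, 142.6 and 310.6 in LPS Dicer-deficient microglia of total brain, against 294.9, 330.1 and 234.4 at steady state. In controls they summed to 211.7, 136.9, 199 and 270.5 after LPS, against 276, 253.4 and 347.3 at steady state. The groups overlapped in both genotypes. In Dicer-deficient microglia LPS against steady state called 1 gene higher and 3 lower by limma, as compared with 12.2% and 12.8% of all genes, and in controls 1 higher and 1 lower, as compared with 7.05% and 7.08%. The median log2 fold change was -0.66 in Dicer-deficient microglia, against -0.04 over all genes, and -0.45 in controls, against -0.05 over all genes. Besides Kif2c and the called genes, the extremes in Dicer-deficient microglia were low for Ndc80 (-1.85), Hmmr (-1.61), Kif23 (-1.47) and Pbk (-1.35) and high for Spc25 (1.15), Tpx2 (0.60), Kif4 (0.44), Ttk (0.34) and Bub1b (0.24). In controls they were low for Mki67 (-1.74), Pbk (-1.68), Mad2l1 (-1.45), Bub1 (-1.43) and Ccnb2 (-1.42) and high for Spc25 (1.21), Nusap1 (0.35), Aurka (0.14), Cdca3 (0.07, with the means the other way) and Plk1 (-0.02). None of these passed the test.

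The genes called lower with LPS were low in all libraries. In Dicer-deficient microglia Cenpe had 0, 0, 0 and 7.7 normalised reads after LPS, against 6.7, 7 and 3.8 at steady state (-1.96 ± 0.68, limma, adjusted p = 0.0433), and Cenpa had 1.9, 6.8, 8.9 and 14.8, against 20.2, 17.6 and 31.4 (-1.60 ± 0.54, adjusted p = 0.0362). Ncapd2, a condensin subunit, was also called, at 8.3, 4.2, 9.5 and 3.8 after LPS, against 21.2, 23.9 and 8.6. Of these 3 genes Cenpa alone had no overlap. In controls Ect2, the exchange factor that activates RhoA for cytokinesis, had 2.1, 0, 0 and 1 after LPS, against 3.8, 5.9 and 5.7 (-1.94 ± 0.61, adjusted p = 0.0428), with no overlap. These 4 calls were lost under some settings, among them edgeR for Cenpe, Cenpa and Ect2 and the fit without a filter for Cenpe, Cenpa and Ncapd2.

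Mki67 had 1.9, 5.1, 5.3 and 13.7 normalised reads in LPS Dicer-deficient microglia of total brain and 6.2, 0, 4.4 and 19.8 in LPS controls, and Top2a had 6.5, 1.7, 7.7 and 17 in LPS Dicer-deficient microglia and 4.1, 4.3, 5.1 and 20.8 in LPS controls. Genotypes overlapped for both. In Dicer-deficient against control microglia after LPS 0 of 39 genes were called by limma, as compared with 9.40% of all 12937 genes, with 1 at an unadjusted p under 0.05, Kif23 (-1.61 ± 0.58, adjusted p = 0.0909), as compared with 23.8% of all genes, and edgeR and DESeq2 called 0. Without the fourth LPS Dicer-deficient library, whose other 39 genes summed highest, Cenpe and Ndc80 were called lower (4.06% of all genes). Kif2c had a log2 fold change of 0.91 ± 0.46 between genotypes after LPS (adjusted p = 0.25), and of 0.37 ± 0.37 without the fourth LPS control (adjusted p = 0.593). The other extremes were low for Prc1 (-1.32), Ndc80 (-1.25), Cenpe (-1.19), Hmmr (-1.05) and Kif11 (-0.91) and high for Ccnb2 (1.27), Aurkb (0.88), Bub1 (0.67), Ccnb1 (0.61) and Kif4 (0.48, with the means the other way). In total brain, 10 monocyte and neutrophil markers summed to 316.2 to 3352 in LPS Dicer-deficient microglia, against 22.3 to 375.3 in steady Dicer-deficient microglia, with an overlap. In controls they summed to 119.8 to 3835 after LPS, against 10.3 to 36.1 at steady state, without overlap. Their part in the LPS results was not tested.

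In hippocampus Kif2c again separated LPS from steady state. It had 80.52 and 242.9 normalised reads in LPS Dicer-deficient microglia, against 0, 0 and 0 at steady state. Against the value of 3 reads per library, taken as the limit of detection, the mean was at least 64.9-fold higher, and Kif2c was called by limma (adjusted p = 0.00192) and under all 12 alternative settings. In controls it had 46.5 and 193.6 after LPS, against 3.428 and 3.131 at steady state, a 36.6-fold difference of means. With 2 libraries in each group the log2 fold change of 4.49 ± 1.21 did not pass (limma, adjusted p = 0.053). It passed with a pseudocount of 5, with the groups compared fitted alone, with edgeR under both scalings and with DESeq2.

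The rest of the genes were sparse in hippocampus, with 9 to 32 of 40 detected in a library, and 38 were tested. In Dicer-deficient microglia LPS against steady state called Kif2c higher and Top2a lower by limma, 2 of 38, as compared with 8.47% of all 12366 genes. Top2a had 0 and 6.727 normalised reads after LPS, against 46.51, 67.89 and 46.18 at steady state (-4.27 ± 1.21, adjusted p = 0.0482), with no overlap, but the call was lost with a pseudocount of 0.1, with edgeR and without a filter. The median log2 fold change was -1.63, against 0.05 over all genes, and the other 39 genes summed to 83.29 and 98.89 after LPS, against 487.3, 559.3 and 333.8 at steady state, without overlap. In controls 0 of 38 genes were called, as compared with 5.23% of all genes, 6 had an unadjusted p under 0.05, as compared with 17.9% of all genes, and edgeR and DESeq2 called Kif2c alone. The median was -0.46, against 0 over all genes, and the sum of the other 39 was 327.1 and 210.7 after LPS, against 387.4 and 520.5 at steady state, again without overlap. In Dicer-deficient microglia the other extremes were low for Ube2c (-3.87), Mad2l1 (-3.84), Kif11 (-3.51), Mki67 (-3.46) and Aurkb (-2.99) and high for Aurka (1.55), Ncapd2 (1.29), Ccnb2 (0.96), Plk1 (0.55) and Smc2 (0.34), although for Plk1 and Smc2 the means ran the other way. In controls they were low for Ccna2 (-2.89), Hmmr (-2.83), Prc1 (-2.60), Cenpe (-2.34), Cdca3 (-2.13) and Cenpf (-2.0) and high for Spc25 (4.20), Top2a (3.46), Kif4 (2.40), Tpx2 (1.46) and Cdca8 (0.99).

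Markers of other cells differed between the same hippocampal groups. In Dicer-deficient microglia 10 monocyte and neutrophil markers summed to 33.3 to 104.9 after LPS, against 7534 to 7690 at steady state, without overlap. In controls they summed to 7.62 to 1247 after LPS, against 453.2 to 2506 at steady state, with an overlap. The 13 microglial markers summed to 46090 to 47010 after LPS in Dicer-deficient microglia, against 80600 to 88110 at steady state, and to 45460 to 55650 after LPS in controls, against 86890 to 92630. Border macrophage markers summed to 1.4 to 29.8 in the LPS libraries, against 253.7 to 454.5 at steady state. Their part in the changes of Kif2c, Top2a and the other mitosis genes was not tested.

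Between genotypes in hippocampus no gene was called by limma, at steady state (0 of 38, as compared with 0.170% of all genes) or after LPS (0 of 38, as compared with 0.307%). An unadjusted p under 0.05 was found for 5 genes at steady state, as compared with 10.5% of all genes, and 4 after LPS, as compared with 8.49%, and after LPS edgeR and DESeq2 called 0 as well. Top2a had 46.51, 67.89 and 46.18 normalised reads in steady Dicer-deficient microglia, against 2.742 and 0 in steady controls (4.79 ± 1.21, adjusted p = 0.152). DESeq2 called it alone and edgeR called 0. Mki67 had 4.228, 8.72 and 25.12 in steady Dicer-deficient microglia, against 32.22 and 33.65 in steady controls, so that each Dicer-deficient library was below both controls. Ube2c had 24.31, 49.21 and 51.85 in steady Dicer-deficient microglia, against 4.113 and 3.913 in steady controls, above them both (3.02, adjusted p = 0.463). The other extremes were high for Anln (2.73), Mad2l1 (2.49), Aurkb (1.97) and Bub1b (1.92) and low for Prc1 (-3.63), Cenpf (-3.56), Ccna2 (-2.40), Ncapd2 (-2.28), Cdca3 (-2.27) and Plk1 (-2.17). After LPS Mki67 was at 0 and 0 in Dicer-deficient microglia, against 5.71 and 10.15 in controls (-3.11 ± 1.22, adjusted p = 0.47). The lowest fold change was that of Spc25, -4.62 ± 1.54, followed by Tpx2 (-3.29), Mki67, Top2a (-2.94), Cdk1 (-2.82) and Kif4 (-2.40), and 13 genes had both Dicer-deficient libraries below both controls, as compared with 22.0% of all genes. The highest were Nuf2 (0.80), Bub1b (0.61), Kif2c (0.55), Aurka (0.31), Kif20a (0.15) and Smc2 (0.07, with the means the other way). After LPS 6 astrocyte markers summed to 1224 to 1569 in Dicer-deficient microglia, against 477.3 to 952 in controls, and 6 markers of endothelium and pericytes to 18.8 to 36.1, against 48.9 to 66.9, both without overlap. Monocyte and neutrophil markers summed to 7534 to 7690 in steady Dicer-deficient libraries, against 453.2 to 2506 in steady controls, and erythroid markers to 181.8 to 290.9, against 25.4 to 42.3. Their part was not tested.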

How the data were processed

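RNA of sorted microglia was captured on oligo-dT beads and sequenced, per the labels' protocols. The submitters' processing notes name bcl2fastq, HISAT 0.1.5, SAMtools, HOMER, DESeq2 and build mm9, with no role or order; the annotation and the strand setting are not given in the sources used here. The deposited values are a signal per gene: as the values themselves show, those of a library are read counts multiplied by 1 factor. Whole reads could be recovered from these steps, with at least 99.91% of values in each library within 0.1 of a whole read, and were used for edgeR 4.0.16, DESeq2 1.42.0 and all read numbers. The main test was limma 3.58.1 (R 4.3.3) with a variance trend on log2(value + 1), on genes that reached a value of 1 in enough libraries to fill the smallest group compared, with all groups of a table in 1 fit and the newborn genotypes in a fit of their own 5 libraries. Benjamini-Hochberg adjustment ran over all genes tested, and genes under 0.05 were called. Scripts were tested on simulated data. Tables were tested separately because they were normalised separately.

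The 40 genes, the other lists and the tests were chosen with earlier results of these data known. The genes named are Mki67, Top2a, Ccnb1 and Cdk1 in the stage and newborn comparisons, Mki67 and Top2a in the others, the 6 highest and 6 lowest fold changes, and called genes where 10 or fewer were called; the remaining members are named for their role with their levels only. Replicate numbers shared between groups do not pair the libraries by their labels. The series text gives 3 LPS Dicer-deficient libraries of total brain where 4 are listed, and all 4 were used. Exosc9, Cdc23, Brd8 and Lcorl were looked up in a RefSeq table because they overlap members. Intervals and limits of detection cover counting error only.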

Additional observations from a re-analysis of the deposited data

Results flagged for a closer look

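In groups of 4 to 10 libraries, the highest or lowest library was compared with the others by Dixon's ratio. This was done in 48 groups of values for the genes named throughout. Chance alone marks about 1 group in 20 where values are continuous, a rate that does not hold for groups with many zeros. Among the 48 groups 3 values stood apart, a share near that rate. Ccnb1 was at 9.899 normalised reads, or 2 reads, in the first untreated adult control, where the median of the 4 controls was 0. Ccnb1 was at 2.9 in LPS control 32 of total brain, where the median of the 4 was again 0. In both Ccnb1 groups all other libraries were at 0, so the ratio is 1 however few reads there are. Top2a was at 20.8 in LPS control 33 of total brain, against a median of 4.7 in that group; the same library was low for Kif2c and high for the sum of microglial markers.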

How the results depend on the processing

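All 40 genes were called lower in adult against P0 and in adult against E14 under every alternative run. In P0 against E14, 11 genes were called in the fit as reported. The number was 2 with a pseudocount of 0.1, 21 with a pseudocount of 5, 18 with edgeR and TMM factors, 22 with edgeR and RLE factors, 23 with DESeq2, 28 with only the groups compared and 27 with the replicate block, and 0 to 11 without single libraries. For the newborn genotype, 0 genes became 1 with a pseudocount of 5, 1 without a filter, 1 with edgeR TMM, 3 with edgeR RLE, 2 with DESeq2, 4 with all 5 P0 controls, 2 with all 16 libraries, 2 with the replicate block, and 0 to 17 without single libraries. The adult genotype gave 0 to 1 and the genotype after LPS in total brain 0 to 2 without single libraries. LPS in total brain controls called 2 genes, or 1 with a pseudocount of 0.1, edgeR TMM, edgeR RLE, DESeq2 and only the groups compared, and 1 to 3 without single libraries. LPS in total brain Dicer-deficient microglia called 4 genes, or 1 without a filter, 2 with edgeR TMM, edgeR RLE and only the groups compared, and 1 to 6 without single libraries. In hippocampus, the genotype at steady state called 1 gene with DESeq2 against 0. LPS in controls called 1 gene with a pseudocount of 5, without a filter, with edgeR TMM, edgeR RLE, DESeq2 and only the groups compared, against 0. LPS in Dicer-deficient microglia called 1 without a filter, with edgeR TMM, edgeR RLE and only the groups compared, and 4 with DESeq2, against 2, and 1 to 2 without single libraries. Over all genes of adult against P0, limma called 5808 and edgeR on recovered reads 6029. Over all genes of the newborn comparison limma called 194, edgeR 396 and DESeq2 572, and for the genotype at steady state in hippocampus limma called 21, edgeR 45 and DESeq2 213. The causes were not tested. Where 1 library remained in a group (newborn and hippocampus), it was assumed to vary like the other groups. Same-numbered libraries correlated at -0.20 to 0.00 between P0 and E14 and at 0.16 and 0.12 in the newborn comparison, so the numbers are not treated as pairs; the replicate block changed no count in the other comparisons where it could be fitted. TMM factors moved the median of all genes in adult against E14 to 0.02, from -0.13. Adult levels of most of these genes rest on a few reads, which limits what can be seen there.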

Other observations

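Of the 24 regulators of mitotic transcription, Cdkn1a, which encodes the Cdk inhibitor p21, rose after LPS in total brain in both Dicer-deficient microglia (log2 fold change 2.75, limma, adjusted p = 0.000337) and controls (1.62, adjusted p = 0.0256). E2f1, the transcription factor of S phase entry, fell by 2.52 in Dicer-deficient microglia (adjusted p = 0.000812) and by 1.70 in controls (adjusted p = 0.0234). Among the 55 further mitosis genes, the condensin subunit Ncaph fell by 1.76 (adjusted p = 0.0141) in Dicer-deficient microglia and by 2.18 (adjusted p = 0.00857) in controls, and the kinetochore gene Cenpt rose by 1.81 (adjusted p = 0.000322) in Dicer-deficient microglia and by 1.01 (adjusted p = 0.031) in controls. The difference between genotypes in these changes did not pass for any of the 4 (limma, adjusted p = 0.637 for Cdkn1a, 0.781 for E2f1, 0.922 for Ncaph and 0.596 for Cenpt). Of all genes, 12.2% were called higher and 12.8% lower after LPS in Dicer-deficient microglia, and 7.05% and 7.08% in controls. The 4 genes were picked from lists of 24 and 55, so they do not describe those lists. In untreated adults, Rbl1, a pocket protein of the DREAM complex, was higher in Dicer-deficient microglia (log2 fold change 1.18, limma, adjusted p = 0.0355). Mcm3, a subunit of the replicative helicase, was lower there (-0.94, adjusted p = 0.0402). Of all genes, 5.15% were called in that comparison in either direction.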
